A study of Mus musculus with 586 samples.

Results

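Follistatin (Fst) and the activin beta subunits Inhba and Inhbb were followed through mouse embryos of 5 stages, from before gastrulation (E5.5 and E6.0) through its start at E6.5 to E7.0 and then E7.5. The 3 genes were taken by name from 23361 genes in 18 tables, 1 table per embryo. They were chosen by their levels across stage, region and section in these same data, so their levels and differences are given as descriptions without p-values. The embryos were C57BL/6 with no treatment named in the labels; each was cut from the distal tip (section 1) to the proximal end, and small fields of cells from each section were taken by laser capture for RNA-seq. The labels give a region code that is read here as in the published atlas of these stages: P and A for posterior and anterior epiblast, L and R for its left and right sides, M for mesoderm (MP posterior, MA anterior), EP and EA for posterior and anterior endoderm, VE for visceral endoderm. A/P marks the undivided distal tip. The labels name no allele or agent for any group.

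Activins are dimers of the beta subunits, betaA from Inhba and betaB from Inhbb. They bind the type II receptors ACVR2A and ACVR2B and the type I receptor ALK4 (Acvr1b), and act through SMAD2 and SMAD3, the same route that NODAL uses with its co-receptor CRIPTO (Tdgf1). Follistatin is a secreted glycoprotein that wraps around activins, and more weakly some BMPs, and keeps them from their receptors. In the mouse it is known from in situ hybridisation as a gene of the primitive streak, while activin subunits are known from the decidua around the embryo. Mice that lack both beta subunits still form mesoderm, and mice that lack follistatin survive gastrulation.

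The analysis used 473 libraries of 586 labelled samples from 18 embryos: 22 libraries of 2 embryos at E5.5, 22 of 2 at E6.0, 109 of 6 at E6.5, 101 of 2 at E7.0 and 219 of 6 at E7.5. Values are FPKM, fragments scaled to transcript length and to the library's mapped fragments, so levels of different genes are on a per-length scale. Read totals were not used here; instead, the FPKM that 1 read was worth in genes with a single transcript put the embryo medians between 1.83 and 10.4 M reads (M for 1000000), and 3 reads then stood for 0.0990 to 0.560 FPKM of Fst, 0.0453 to 0.256 FPKM of Inhba and 0.0680 to 0.384 FPKM of Inhbb. Between 2683 and 11319 genes reached 1 FPKM per library, and 22 libraries had fewer than 5000. Among 139 A and P libraries of E5.5 to E7.0, 2 were under 10 FPKM of Pou5f1, the transcription factor OCT4 that marks epiblast. One was the section 3 A library of E5.5 embryo 1. It still held 37.0 FPKM of Utf1, another epiblast marker, and 69.9 of the endoderm gene Apoa1. The other was the section 5 P library of E6.0 embryo 1, with Utf1 at 0. It instead held 461 FPKM of the stromal gene Dcn and 1083 FPKM of the globin gene Hba-a1, both at 0 in the E5.5 library. The E5.5 and E6.0 values of these regions are given with and without these 2 libraries. The table of the sixth E6.5 embryo carries an E6.0 name although its labels say E6.5; it was kept at E6.5. The E7.0 A libraries, and those of E7.5 embryos 4 to 6, cover sections 3, 6 and 9, with section 1 also present in E7.0 embryo 2. Errors are SD over embryos unless named as SE. These are bulk samples, so fewer cells of a type and less RNA per cell cannot be told apart.

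In the GRCm38 (mm10) annotation Fst lies on the minus strand of chromosome 13 at 114452290 to 114458951. Inhba lies on the plus strand of chromosome 13 at 16011851 to 16031621, and Inhbb on the minus strand of chromosome 1 at 119415465 to 119422248. The antisense gene Gm47040 overlaps Fst, and the antisense gene Gm48444 and the pseudogene B230303A05Rik overlap Inhba. None of the 3 overlapping genes has a row in the tables, and the counting is not stated to use strand, so their reads cannot be told apart from those of the members.

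Fst was an abundant transcript of the embryo proper, and the activin subunits were barely measured. Fst was above 0 in 450 of 473 libraries (95.1%), at 20 FPKM or more in 220 and at 100 FPKM or more in 75, with a median of 14.9 FPKM. Its highest value was 403 FPKM, in section 7 of the posterior epiblast of E7.5 embryo 3. Inhba was above 0 in 101 libraries (21.4%) and reached 1 FPKM in 25. Inhbb was above 0 in 47 libraries (9.94%) and reached 1 FPKM in 2. The Fst median per stage was 1.50 FPKM at E5.5, 2.45 at E6.0, 9.62 at E6.5, 38.6 at E7.0 and 22.4 at E7.5; these medians also move with which regions were captured at each stage.

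Within 1 library, Fst exceeded Inhba in 442 libraries and Inhba exceeded Fst in 11, with both at 0 in the other 20. Fst exceeded Inhbb in 450 libraries, and Inhbb exceeded Fst in 2. The 2 subunit genes were above 0 together in 11 libraries.

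**Figure D1:**
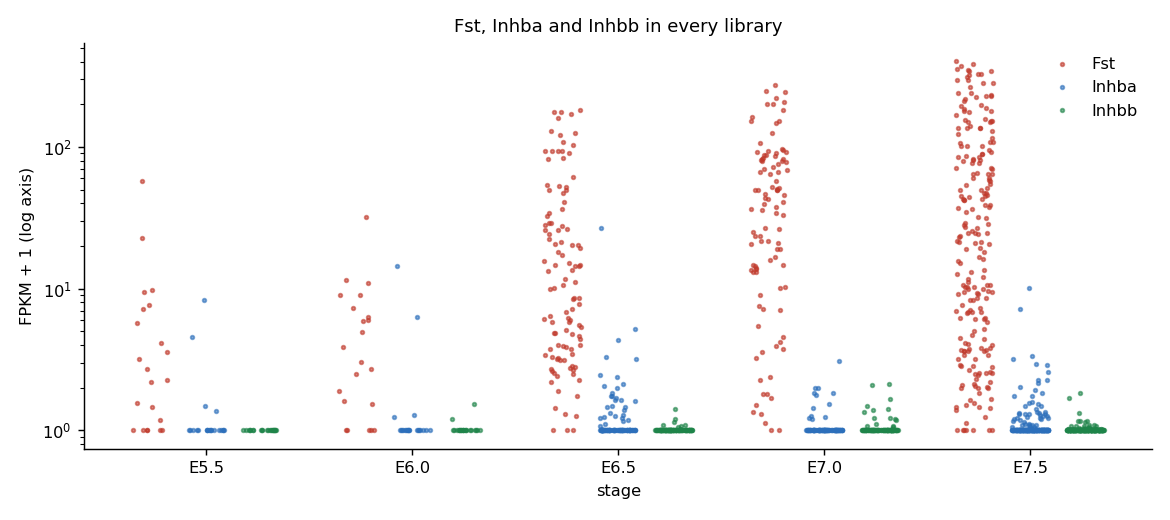
Fst, Inhba and Inhbb in every library (1 point each), by stage, as FPKM + 1 on a log axis. Fst spreads up to 403 FPKM, while Inhba goes up to 25.7 FPKM and Inhbb up to 1.14 FPKM.

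Ordered by mean level over embryos, Fst stood highest in the posterior epiblast of the 3 later stages. It averaged 63.3 ± 18.3 FPKM in P at E6.5 (n = 6), 129 ± 90.7 at E7.0 (n = 2) and 230.0 ± 68.9 at E7.5 (n = 4). Undivided codes (A/P, EA/EP) and codes captured in 1 embryo left aside, next came E7.0 tissue, with 58.8 ± 20.9 FPKM in R, 54.7 ± 17.5 in posterior endoderm and 46.5 ± 0.267 in L (n = 2 each). The posterior mesoderm at E7.5 had 45.7 ± 3.68 FPKM and the posterior endoderm of that stage 45.6 ± 19.9 (n = 2 each). Anterior endoderm followed with 36.0 ± 3.73 FPKM at E7.0 and 29.5 ± 2.36 at E7.5, and E7.0 mesoderm had 24.0 ± 21.3 (n = 2 each). From R at E7.0 to the E7.5 posterior endoderm, each neighbour in this order lay within 1 SD of the next, and P at E7.0 overlapped P at both E6.5 and E7.5.

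The low end of the order held the anterior and the early tissue. Fst averaged 10.9 ± 10.9 FPKM in A at E7.5 (n = 6), 9.61 ± 6.06 in A at E6.5 (n = 6), 4.02 ± 0.614 in the anterior mesoderm at E7.5 (n = 2) and 1.73 ± 1.14 in A at E7.0 (n = 2). At E5.5 it averaged 10.5 ± 10.5 FPKM in P and 1.95 ± 1.67 in A, and at E6.0 2.95 ± 2.08 in P and 4.35 ± 2.69 in A (n = 2 each). Without the 2 libraries low in Pou5f1, A at E5.5 was 1.72 ± 1.99 FPKM and P at E6.0 2.35 ± 1.22. The visceral endoderm of 1 E6.0 embryo gave 4.95, 0, 31.2 and 8.05 FPKM in sections 1 to 4. Each of these A, P and MA groups lay within 1 SD of the next in the order. Averaged over its libraries, Fst in P lay above 95.4% of all genes at E6.5, 97.8% at E7.0 and 98.6% at E7.5, where 328 genes were higher; in A at E7.0 it lay above 64.9%.

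**Figure D2:**
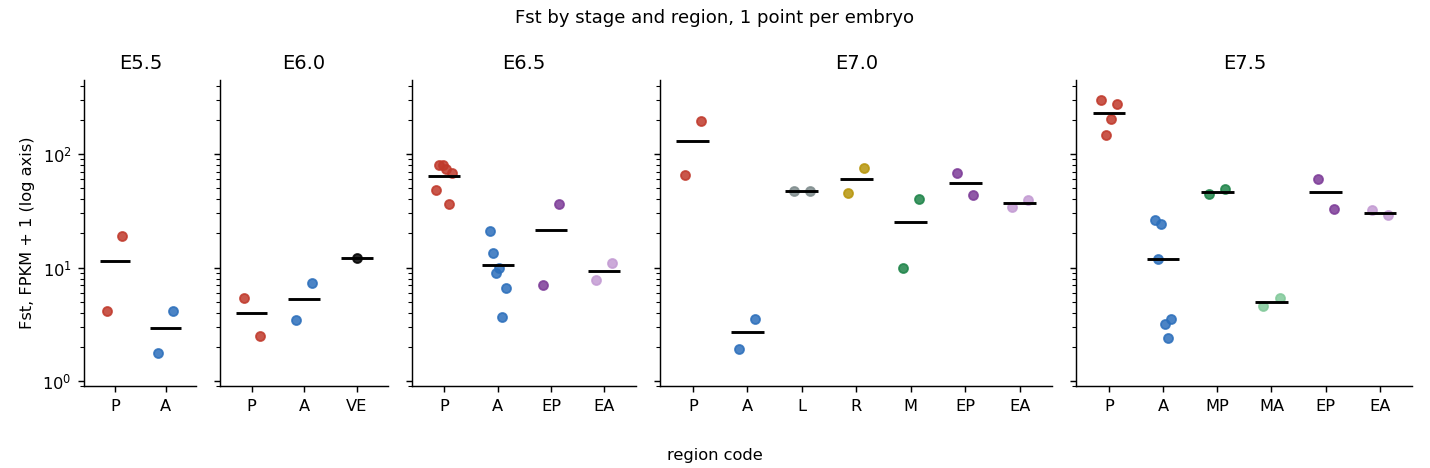
Fst per embryo and region (1 point per embryo, the mean of its sections) as FPKM + 1 on a log axis, 1 panel per stage; bars are means over embryos. Posterior epiblast stands above anterior epiblast in every embryo with both regions at E6.5, E7.0 and E7.5 (no P in E7.5 embryos 1 and 2), and the 2 overlap at E5.5 and E6.0.

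The posterior bias of Fst was not settled before gastrulation. At E5.5, P and A had 3.11 and 0.771 FPKM in embryo 1 (2.35 and 0.320 without its low-Pou5f1 section), and 17.9 and 3.13 FPKM in embryo 2. The embryo 2 mean of P drew on its most proximal sections 5 and 6, with 21.6 and 56.3 FPKM. At E6.0, P and A had 4.42 and 2.44 FPKM in embryo 1 (3.21 and 1.17 without its low-Pou5f1 section), but 1.48 and 6.25 FPKM in embryo 2, the opposite order. The section-matched difference P minus A on the log2(FPKM + 1) scale, a scale that understates the change of low genes, was 1.29 ± 0.754 at E5.5 and -0.39 ± 1.76 at E6.0 (n = 2 each). Without the 2 low-Pou5f1 libraries it was 1.25 ± 0.799 and -0.30 ± 1.89. The E6.0 spread is larger than its mean.

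At E6.5, when the streak forms, P was above A in all 6 embryos. P and A had 46.8 and 20.0 FPKM in embryo 1, 78.9 and 12.4 in embryo 2, 79.7 and 8.03 in embryo 3, 72.4 and 8.90 in embryo 4, 35.0 and 2.66 in embryo 5, and 67.1 and 5.59 in embryo 6. The lowest P mean was above the highest A mean, and P was higher in 34 of 37 sections. Embryo 1 had the smallest difference (0.97 on the log2 scale) through the highest A level, and embryo 5 the largest (3.07) through the lowest. Embryos 1 to 4, at an estimated median of at least 7.34 M reads per library, averaged 2.05 ± 0.729. Embryos 5 and 6, at 2.59 and 1.83 M, averaged 2.84 ± 0.326. For scale, 0.586% of the 11438 genes tested across the table were higher in P at an adjusted p under 0.05 and 0.14% were lower (0.726% in all); nothing is read from this for Fst, which was chosen for its pattern.

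At E7.0 and E7.5 the difference between the ends was larger. P and A had 91.7 and 0.928 FPKM in E7.0 embryo 1 and 166 and 2.54 FPKM in embryo 2, in the sections that held both. At E7.5 they had 299 and 23.3 FPKM in embryo 3, 115 and 2.21 in embryo 4, 162 and 1.39 in embryo 5, and 297 and 2.53 in embryo 6. P minus A was 5.38 ± 0.332 on the log2 scale at E7.0 (n = 2) and 5.94 ± 0.500 at E7.5 (n = 4), with P higher in 7 of 7 and 19 of 19 sections. Higher P values and, at E7.0, lower A values both went into this. The share of all genes higher in P was 1.66% at E7.0 and 10.3% at E7.5, the share lower 1.29% and 3.44%, and the sum 2.96% and 13.8%. The median difference of all genes was -0.0057 at E6.5, 0.051 at E7.0 and 0.15 at E7.5. With a pseudocount of 0.1 in place of 1 the Fst difference was 6.41 at E7.0 and 7.11 at E7.5.

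Along the distal to proximal axis of the E6.5 posterior epiblast, Fst was low at the tip and high from the middle upward. From section 2 upward, embryo 1 had 7.40, 5.82, 14.2, 53.3, 93.1 and 107 FPKM. Embryo 2 had 6.24, 27.9, 52.3, 124, 170.4 and 92.8 FPKM. Both reached their highest values in sections 6 or 7. Embryo 3 had 0.890, 25.3, 82.9, 161 and 129 FPKM, and embryo 4 had 2.20, 25.1, 93.4, 16.3, 177 and 120.5 FPKM. Section 5 of embryo 4 lay below its neighbours on both sides. Embryo 5 had 4.39, 7.64, 24.9, 23.3, 102, 51.5 and 31.7 FPKM, and embryo 6 had 2.38, 5.41, 21.3, 93.1, 176, 89.5 and 81.4 FPKM. In 5 of the 6 embryos the highest value came before the last section, and in embryo 1 it came in the last. Each section is 1 library, so a drop at the proximal end cannot be told from the spread between libraries.

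The first P section averaged 3.92 ± 2.54 FPKM and the last 93.8 ± 35.1 FPKM (n = 6). The anterior epiblast ran the same way at a lower level, from 2.03 ± 1.05 FPKM in its first section to 18.8 ± 9.89 in its last. The line fitted per embryo from most distal (0) to most proximal (1) section climbed in 6 of 6 embryos in both regions, by 4.57 ± 0.956 in P and 2.74 ± 0.607 in A on the log2 scale; the median slope of all genes in P was 0.40. At the undivided tip, Fst was 1.27 to 4.86 FPKM in embryos 2 to 6 and 182 FPKM in embryo 1. That tip library of embryo 1 held 156 FPKM of Pou5f1 and 0.120 FPKM of T, the streak gene brachyury. It also held 460 FPKM of the endoderm gene Apoa1, 30.6 of Foxa2 and 41.4 of Gsc, the last a gene of the anterior streak and anterior endoderm. Sparc, abundant in parietal endoderm, stood at 1645 FPKM and the decidual gene Cryab at 90.2. Their part in its Fst value was not tested. The A/P mean was 32.4 ± 73.3 FPKM with it and 2.48 ± 1.48 without it.

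At E7.0 the posterior profile differed between the 2 embryos, with high values near the tip in embryo 2 only. Embryo 1 still climbed, with 2.23, 9.25, 18.2 and 40.2 FPKM in sections 1 to 4, a peak of 151 in section 9 and 49.1 in section 11. Embryo 2 had 38.6 FPKM in section 1, 146 in section 2, a peak of 271 in section 5 and 163 in section 11. The slopes were 3.86 and 0.99, beside 3.21 to 5.93 in P of the E6.5 embryos. In A the 2 embryos had 1.28, 0.819 and 0.691 FPKM, and 1.39, 2.59 and 0 FPKM, in sections 3, 6 and 9; section 1 of embryo 2 had 6.18. Every A library of this stage was below every P library of its own embryo.

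At E7.5 the posterior epiblast carried Fst along its whole length. The first section averaged 195 ± 75.5 FPKM and the last 182 ± 70.9 (n = 4), and the slope was -0.19 ± 0.775, up in 1 embryo and down in 3. Over sections the values ran from 175 to 403 FPKM in embryo 3, from 63.9 to 353 in embryo 4, from 128 to 298 in embryo 5 and from 136 to 351 in embryo 6. Embryo 4 stayed below 200 FPKM in 9 of 10 sections, and embryo 3 stayed above it in 8 of 10.

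The E7.5 anterior epiblast showed Fst at its distal end. From section 1, A had 76.0, 107, 35.9, 1.08 and 0 FPKM in embryo 1, 59.3, 19.7, 11.6, 0.395 and 3.06 FPKM in embryo 2, and 100.5, 78.1, 33.7, 12.5 and 3.02 FPKM in embryo 3. From section 5 on, each of the 3 was low. In sections 3, 6 and 9, embryo 4 had 6.62, 0 and 0 FPKM, embryo 5 had 1.54, 0 and 2.64, and embryo 6 had 2.69, 3.12 and 1.80. Over embryos the slope was -3.42 ± 3.00, downward in 5 of 6, and over sections 3, 6 and 9 alone A averaged 5.96 ± 5.15 FPKM. Distal A sections also held node and streak genes, given here as ranges of embryo means over the distal and the proximal sections, parted at the middle of the embryo's section range. The ranges take in all 6 embryos, so they are not limited to the sections highest in Fst. In embryos 4 to 6 the distal sections were 3 and 6, where Fst was 0 to 6.62 FPKM. Noto, a gene of the node and notochord, was at 0.292 to 137.6 FPKM in distal sections against 0 to 0.204 in proximal ones. T was at 3.42 to 259 against 0 to 11.1, Foxa2 at 1.23 to 18.9 against 0 to 1.40, and Chrd, a BMP antagonist of the node, at 0.189 to 17.1 against 0 to 0.462. The summed 5 streak markers were at 5.00 to 272 FPKM against 0.782 to 14.8. Their part in the Fst levels was not tested.

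**Figure D3:**
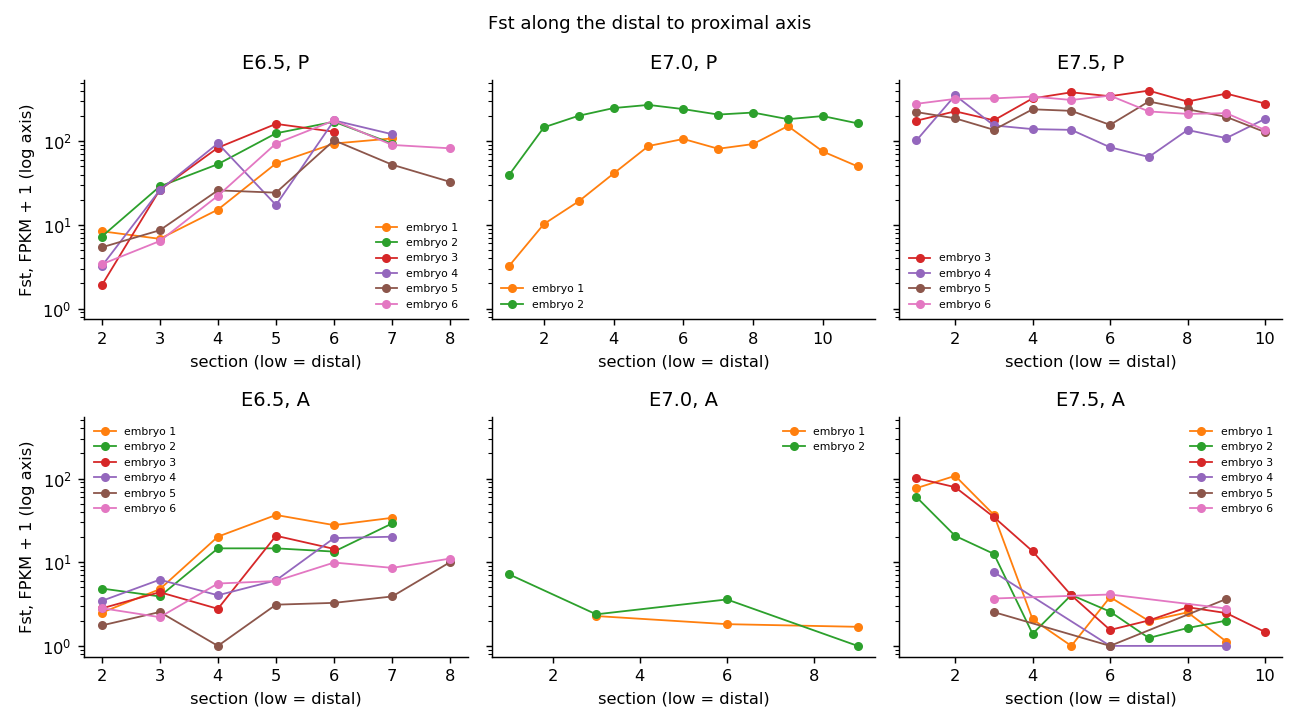
Fst (FPKM + 1, log axis) by section number from the distal tip, with posterior epiblast in the upper row and anterior epiblast in the lower, 1 line per embryo, at E6.5, E7.0 and E7.5. The E6.5 posterior lines climb from a first-section mean of 3.92 to a last-section mean of 93.8 FPKM, the E7.5 posterior lines run level, and 3 anterior lines at E7.5 start at 59.3 to 100.5 FPKM and drop.

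The sides of the E7.0 epiblast lay between its ends. There L had 20.1, 22.7 and 96.0 FPKM in embryo 1 and 42.5, 48.8 and 48.7 FPKM in embryo 2. R had 3.23 FPKM in section 3 and 84.9 in section 9 of embryo 1, and 78.7, 76.9 and 65.2 FPKM in embryo 2. Both sides were above A in both embryos, by 4.40 ± 0.202 for L and 4.23 ± 1.35 for R on the log2 scale. P was above L by 1.51 ± 0.874 and above R by 1.49 ± 0.0125 (n = 2 each). L minus R was 1.25 in embryo 1 and -0.64 in embryo 2, so no side was consistently higher. In sections 2 and 10 of E7.5 embryo 3, L averaged 78.1 FPKM, R 31.2 and A 39.3, with R above A in 1 of the 2 sections. In its other sections the sides were captured as paired codes that the labels do not explain. There L2 averaged 163 FPKM, L1 46.1, R2 64.5 and R1 7.61 over the same 7 sections. The code ending in 2 was higher on both sides, by 2.45 on the left and 3.07 on the right, and the left was higher within each code, by 2.13 and 1.51, in 7 of 7 sections each. P of the same embryo was above L2 by 1.02, in 6 of 7 sections. These left and right values come from 1 embryo.

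Mesoderm, the layer that leaves the streak, held less Fst than the posterior epiblast of its own sections. At E7.0, M and P averaged 9.00 and 70.7 FPKM in embryo 1, and 39.1 and 208 FPKM in embryo 2. M was lower in 20 of 20 sections and the difference was -2.66 ± 0.033 on the log2 scale (n = 2). The 2 embryos differed in the distal mesoderm: sections 2 to 4 had 81.4, 93.4 and 63.6 FPKM in embryo 2, but 7.96, 2.91 and 6.06 in embryo 1, which ranged over 2.91 to 13.4 in all its sections.

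At E7.5 the posterior and anterior mesoderm did not overlap in any section. MP and P averaged 43.1 and 201 FPKM in embryo 5, and 48.3 and 271 FPKM in embryo 6, a difference of -2.40 ± 0.268. MA averaged 3.58 FPKM in embryo 5 and 4.45 FPKM in embryo 6, which put it below P by -5.78 ± 0.186. MP minus MA was 3.38 ± 0.082, positive in 18 of 18 sections. The anterior to posterior difference of Fst was therefore present in this layer too, with MP between 14.8 and 80.6 FPKM and MA between 0.451 and 9.68. In embryo 4 the codes M1 and M2, which the labels do not explain, averaged 13.8 and 6.36 FPKM. Over both stages mesoderm minus P was -3.37 ± 0.837 (n = 4); 4.03% of the 9828 genes tested were higher in mesoderm and 39.1% lower (43.1% in all), with a median difference of -0.24.

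Endoderm carried Fst as well, and from E7.0 on its level dropped toward the proximal end. At E6.5, EP had 0 to 20.3 FPKM in embryo 5 and 9.62 to 60.7 in embryo 6, and EA had 0 to 17.2 in embryo 5 and 1.70 to 46.2 in embryo 6. EP averaged 20.6 ± 20.5 FPKM and EA 8.37 ± 2.26 (n = 2). EP and EA averaged 6.07 and 6.77 FPKM in E6.5 embryo 5, and 35.1 and 9.96 FPKM in embryo 6. On the log2 scale EP minus EA was 1.15 ± 1.50 there, 1.25 ± 0.528 at E7.0 and 0.62 ± 0.695 at E7.5, positive in every embryo, but in E6.5 embryo 5 by 0.092, with the FPKM means in the opposite order. The spread exceeded the difference at E6.5 and at E7.5. At E6.5 the slope toward the proximal end was -3.08 ± 1.66 in EA, down in both embryos, and -0.032 ± 1.33 in EP, up in 1 and down in 1. The single E6.0 VE series climbed by 2.05.

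At E7.0 and E7.5 these differences were smaller than P minus A (5.38 and 5.94), and anterior endoderm lay well above anterior epiblast. EA minus A was 0.32 at E6.5, 3.21 at E7.0 and 2.80 at E7.5. EP minus P was -1.36 ± 1.63 at E6.5, -1.49 ± 1.64 at E7.0 and -3.37 ± 1.47 at E7.5 (n = 2 each). The spread exceeded the difference at E6.5 and E7.0. At E7.0 it was -0.33 in embryo 1, with EP higher in 5 of 10 sections, and -2.65 in embryo 2, with EP higher in 0 of 10. With both sides averaged in FPKM, endoderm and epiblast had 14.5 ± 11.4 and 27.6 ± 12.4 FPKM at E6.5. They had 39.9 ± 7.31 and 75.6 ± 41.5 in the E7.0 embryos, then 41.1 ± 3.51 and 115.9 ± 48.0 in those of E7.5, and endoderm was lower in each of the 6 embryos. These E7.0 and E7.5 means also rest on 3 sections per embryo. With both sides averaged as logs, which gives the low A values more weight, endoderm minus epiblast came to -0.52 ± 0.718, 0.94 ± 0.428 and -0.088 ± 1.31 (n = 2 each), and to 0.11 ± 0.964 over the 6 embryos. The direction at E7.0 thus depends on the scale. In this contrast 10.7% of the 10332 genes tested were higher in endoderm and 58.4% lower (69.1% in all), and the median of all genes was -0.47.

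Within the endoderm of E7.0 and E7.5, Fst was lowest in the most proximal sections. In E7.0 embryo 1, EP had 68.9, 91.6, 71.2, 94.6, 45.6, 151, 82.2, 45.1, 19.7 and 0.304 FPKM from distal to proximal, and EA had 33.1, 56.1, 65.2, 81.5, 32.1, 50.3, 14.9, 0, 0.124 and 0.340. Embryo 2 began at 36.5 FPKM in EP, peaked at 89.4 in section 8 and ended at 4.47, while its EA reached 124 FPKM at section 5 and ended at 0.519 and 0.792. In EP of this stage the highest sections, 7 and 8, thus lay past the middle, and the distal and proximal means were within 1 SD of each other. At E7.5, EP peaked at 198 FPKM in section 4 of embryo 5 and at 85.2 FPKM in section 4 of embryo 6, where it ended at 0.448. EA peaked in section 5 of embryo 5 and, at 84.6 FPKM, in section 6 of embryo 6, where it ended at 0. EP averaged 63.5 ± 15.4 FPKM in distal sections against 45.8 ± 19.7 in proximal ones at E7.0, and 75.6 ± 27.9 against 8.15 ± 9.90 at E7.5. EA averaged 55.8 ± 3.09 against 16.2 ± 4.37 at E7.0, and 49.2 ± 0.945 against 4.80 ± 4.13 at E7.5. The slopes were -3.20 and -5.16 in EP, and -5.58 and -4.71 in EA, at the 2 stages.

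Markers of cell types were set along the same axis in these endoderm libraries. Apoa1, an apolipoprotein of visceral endoderm, ran against Fst, with 202 FPKM in distal and 2076 in proximal EP of E7.0, 157 and 2587 in EA. In E7.5 endoderm it had 179 and 2836 FPKM in EP, 73.0 and 1753 in EA. Sox17, a definitive endoderm gene, was at 12.4 and 7.58 FPKM in E7.0 EP and 22.2 and 15.0 in EA, but nearly level in E7.5 embryos, at 12.1 and 11.1 in EP and 15.9 and 13.5 in EA. The summed 5 epiblast markers ran with Fst, with 113 FPKM in distal and 35.5 in proximal EP and 119 and 50.3 in EA at E7.0, and 68.4 and 23.0 in EP and 51.4 and 21.9 in EA at E7.5. Posterior epiblast itself had 396 and 334 at E7.0. The streak marker sum in EP was 109 and 45.2 FPKM in E7.0 embryos, 141 and 33.5 in E7.5 embryos. Decidual and maternal blood markers, 6 of 8 of which have rows, summed to 9848 and 7114 FPKM in EP at E7.0 and 8085 and 5377 in EA, against 132 and 108 in P. The part of these markers in the Fst levels was not tested.

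**Figure D4:**
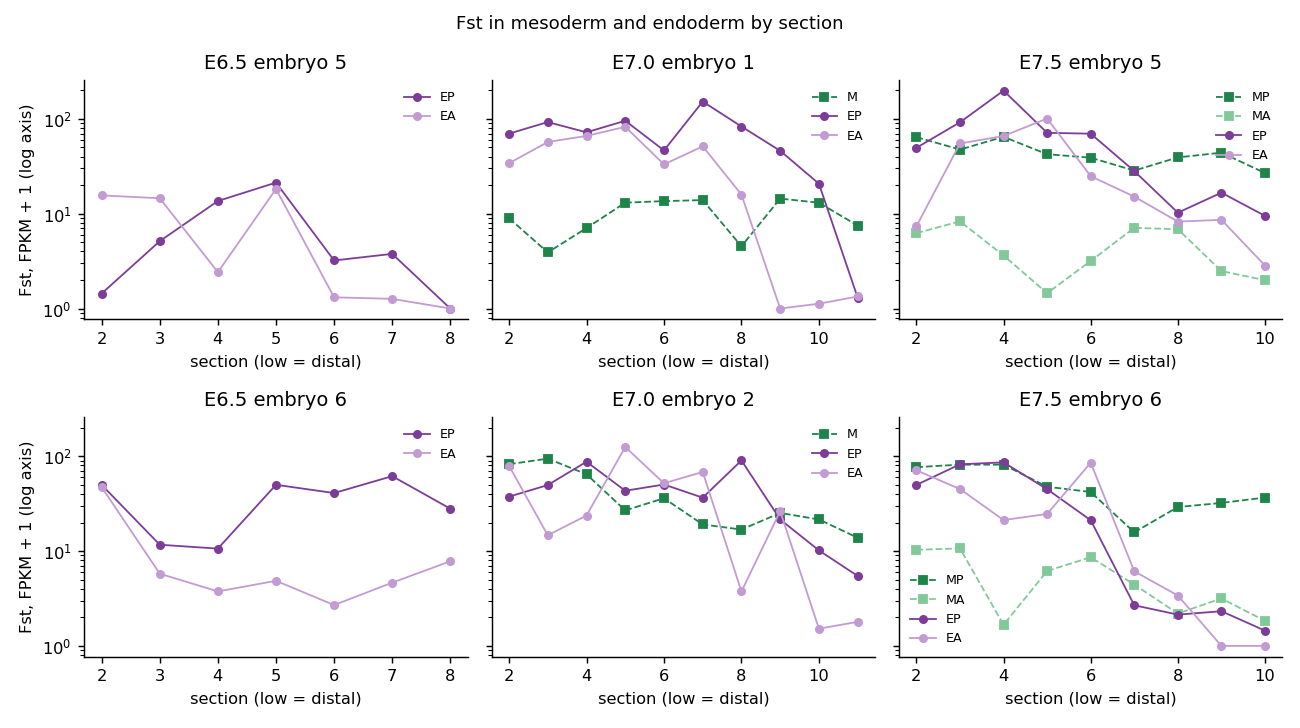
Fst (FPKM + 1, log axis) by section number from the distal tip in the mesoderm and endoderm of E6.5 embryos 5 and 6, E7.0 embryos 1 and 2 and E7.5 embryos 5 and 6. MP lies above MA in all 18 section pairs at E7.5, and the endoderm lines of E7.0 and E7.5 drop toward the proximal end.

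Inhba, the betaA subunit, was above 0 in a scatter of libraries. It was above 0 in 4 of 22 libraries at E5.5, 4 of 22 at E6.0, 31 of 109 at E6.5, 12 of 101 at E7.0 and 50 of 219 at E7.5. The embryos of E6.5 and E7.5 with more reads also have the lower limits of detection, so these shares are not compared. Of the 101 values above 0, 96 reached the level of 3 reads. Most were small, with 6 libraries at 5 FPKM or more. The group with the steadiest signal was R2 of E7.5 embryo 3, one of the deeper embryos, with 6 of 7 libraries above 0 at 0.0503 to 0.309 FPKM. Both E5.5 tips also held it, at 0.482 and 0.371 FPKM.

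The highest Inhba value was 25.7 FPKM in section 6 of EA in E6.5 embryo 5, a library with 4487 genes at 1 FPKM or more. It held 2.90 FPKM of Pou5f1 and 500.2 of Hba-a1, with Dcn and Cryab at 0. Next was 13.5 FPKM in the E6.0 P library that lacked Pou5f1. Then came 9.09 and 6.20 FPKM in sections 6 and 9 of the code E1 in E7.5 embryo 4, 7.29 in section 4 of A in E5.5 embryo 2 and 5.35 in the tip of E6.0 embryo 2. These 6 libraries share no one region or stage. E6.5 EA averaged 1.88 ± 2.53 FPKM with its highest library and 0.0449 ± 0.0636 without it, and E6.0 P averaged 1.73 ± 2.35 with its own and 0.0343 ± 0.0485 without it.

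In the epiblast with larger numbers of libraries Inhba stayed below 1 FPKM on average and showed no posterior or anterior side. P and A averaged 0.314 ± 0.324 and 0.236 ± 0.208 FPKM at E6.5 (n = 6), 0.136 ± 0.136 and 0 at E7.0 (n = 2), and 0.145 ± 0.035 and 0.144 ± 0.250 at E7.5 (n = 4 and 6). P minus A was 0.046 ± 0.297 on the log2 scale at E6.5, positive in 4 embryos and negative in 2, and -0.12 ± 0.204 at E7.5. At E5.5, P was at 0 in all 10 libraries and A averaged 1.08 ± 0.532 FPKM, from 1 library in each embryo (3.53 and 7.29 FPKM) with the other 8 at 0. Without the 3.53 the A mean was 0.729 ± 1.03 and without the 7.29 it was 0.353 ± 0.499. At E7.5 the slope in P was -0.43 and ran downward in 4 of 4 embryos, whose highest values were 0.760 to 1.57 FPKM. Inhba was above 0 in 2 to 4 of 10 P libraries per embryo, so few libraries set that slope. MP at E7.5 was at 0 in all 18 libraries, a region where Fst averaged 45.7 FPKM.

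Inhbb, the betaB subunit, was at the limit of detection everywhere. It was above 0 in none of 22 libraries at E5.5, 2 of 22 at E6.0, 8 of 109 at E6.5, 15 of 101 at E7.0 and 22 of 219 at E7.5, and 15 of the 47 values above 0 reached the level of 3 reads. The highest were 1.14 FPKM in section 5 of EA and 1.10 in section 2 of EP, both in E7.0 embryo 2. Then came 0.841 and 0.684 FPKM in sections 9 and 5 of EA in E7.5 embryo 6 and 0.654 in the section 1 A library of E7.0 embryo 2. So 4 of the 5 highest values were endoderm libraries, and the first of them also held 124 FPKM of Fst and 1909 of Hba-a1, with Dcn at 0. P minus A was 8.87e-05 ± 0.0525 at E6.5, -0.082 at E7.0 and -0.0064 at E7.5. At E6.0 the P mean of 0.0664 ± 0.0939 FPKM came from the library that lacked Pou5f1, and without it P was at 0.

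Because activin transcripts are known from the decidua, the maternal markers were set beside the subunits. Their summed level had a median of 65.8 FPKM in the 25 libraries with Inhba at 1 FPKM or more, 29.0 in the 76 libraries with a value between 0 and 1, and 99.4 in the 372 libraries at 0. The sum holds globin as well as decidual genes. In the same order, Hba-a1 alone had medians of 53.9, 16.4 and 64.3 FPKM, and Dcn had medians of 0.487, 0.252 and 0. Dcn reached 1 FPKM in 9 of the 25, 19 of the 76 and 81 of the 372. For Inhbb the median of the sum was 109 FPKM in the 45 libraries above 0 and below 1, against 85.9 in the 426 at 0. In the 2 libraries with Inhbb at 1 FPKM or more it was 1616 FPKM. These held Hba-a1 at 1909 and 727 FPKM and Cryab at 21.7 and 4.45, with Dcn at 0 in both. The 2 highest Inhba libraries held 500.2 and 1083 FPKM of Hba-a1, with Dcn at 0 and 461 and Cryab at 0 and 8.99. Among the other Inhba libraries at 5 FPKM or more, Hba-a1 was at 195 and 198 FPKM in E1 of E7.5 embryo 4. It was at 0 in A of E5.5 embryo 2 and at 8.46 in the tip of E6.0 embryo 2. The part of maternal RNA in these values was not tested.

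Likeness to the members was measured by Pearson's r over 59 embryo by region means of log2(FPKM + 1), among 8602 genes, as a description without a p; the points share embryos and depth. The genes most like Fst were Cxx1c (r = 0.822), Frzb (0.806), a secreted WNT antagonist, Evx1 (0.803), a homeobox gene of the posterior streak, Apln (0.787), the ligand apelin, and Wnt5b (0.775). The least like were Sfrp1 (-0.582), another secreted WNT antagonist, Lrp2 (-0.535), the endocytic receptor megalin, and Pou3f1 (-0.498), a POU factor of the anterior epiblast. For Inhba the highest r was 0.597 (Zbp1), followed by Olfr18, Mstn, Olfr1494 and Igf1 down to 0.550. For Inhbb it was 0.570 (Hba-x, an embryonic globin), followed by Samd3, Emp2, Ralgds and Ppfibp2 down to 0.500. With the subunits above 0 in so few libraries, these values rest on few points; Mstn itself reached 1 FPKM in 3 libraries.

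The rest of the activin and NODAL pathway was described from 34 genes in 5 lists, of which 28 had enough FPKM to be tested in P against A with limma over all genes. The lists were drawn up with earlier results of these data known. At E6.5, 7 of the 28 were higher in P and none lower, beside 0.586% and 0.14% of all genes. At E7.0, 8 were higher and none lower, beside 1.66% and 1.29% of all genes. By E7.5, 6 were higher and 3 lower, beside 10.3% and 3.44%. The medians of the tested list genes were 0.12, 0.20 and 0.070 on the log2 scale. Fitted with no embryo term, 3, 5 and 3 pathway genes were called; without E7.0 embryo 1 the E7.0 count was 4, and without E7.5 embryo 6 the E7.5 count was 4. Primitive streak markers, 5 of 5, were higher in P at each of the 3 stages.

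The other ligands behaved in separate ways. The remaining activin and inhibin subunits were, like Inhba and Inhbb, near the limit: Inha reached 1 FPKM in 31 libraries, Inhbc in 19 and Inhbe in 8, and none was tested. Nodal, the ligand that drives streak formation, averaged 19.9 ± 6.22 FPKM in P and 11.7 ± 7.37 in A at E6.5 (n = 6), and did not pass the test there. It was higher in P at E7.0, with 6.65 ± 1.38 and 1.19 ± 0.954 FPKM and a log2 difference of 2.45 ± 0.49 (SE, limma adjusted p = 0.00837), and at E7.5 by 1.13 ± 0.35 (SE, adjusted p = 0.0389), in 3 of 4 embryos. Gdf1, a NODAL partner, was lower in P at E7.5, with 4.37 ± 3.79 FPKM in P (n = 4) and 18.8 ± 11.1 in A (n = 6). Its difference in matched sections of the 4 embryos with both regions was -1.63 ± 0.18 (SE, adjusted p = 3.98e-06). The A mean thus includes embryos 1 and 2, which have no P. Gdf3 passed at no stage. Leaving out either E7.0 embryo, or E7.5 embryo 4, 5 or 6, ended the Nodal call of that stage, with adjusted p up to 0.149 at E7.0 and 0.254 at E7.5.

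Among receptors, Acvr2b was the activin type II receptor with a clear signal, at 28.9 ± 13.9 FPKM in P and 28.1 ± 12.2 in A at E6.5, and it passed the test of P against A at no stage. Acvr2a reached 1 FPKM in 255 libraries. The type I receptor genes Acvr1b and Acvr1c reached it in 14 and 22 libraries, with highest values of 3.44 and 3.80 FPKM, and were not tested. Tdgf1 was higher in P at E7.0 by 3.93 ± 0.71 (SE, limma adjusted p = 0.00465) and at E7.5 by 3.45 ± 0.50 (SE, adjusted p = 0.000152). Cfc1, the related co-receptor CRYPTIC, was lower in P at E7.5 by -1.16 ± 0.29 (SE, adjusted p = 0.0112). Tgfbr3, betaglycan, which binds inhibin and TGF-beta, was higher at E6.5 by 0.88 ± 0.17 (SE, adjusted p = 0.0210) and at E7.0 by 1.45 ± 0.30 (SE, adjusted p = 0.0105). The Tdgf1 call at E7.5 held without any 1 embryo. The other 4 were lost without 1 embryo of their own stage: either embryo for Tdgf1 and Tgfbr3 at E7.0 (adjusted p up to 0.103 and 0.184), embryo 3 or 4 for Cfc1 (up to 0.0810), and embryo 2, 3, 5 or 6 for Tgfbr3 at E6.5 (up to 0.135).

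Of 7 SMADs and partners, Smurf2, a ubiquitin ligase, passed at E7.5 with a difference of 0.61 ± 0.19 (SE, limma adjusted p = 0.0425), and no other passed at any stage. Leaving out E7.5 embryo 4, 5 or 6, or any E6.5 embryo, ended that call (adjusted p up to 0.207). The SMAD partner Foxh1 averaged 29.3 ± 11.5 FPKM in P and 29.8 ± 11.4 in A at E6.5.

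Of the 6 other antagonists and processing genes tested, none passed at E6.5. Lefty2, a NODAL antagonist, was higher in P at E7.0 with 79.1 ± 62.0 and 0.233 ± 0.329 FPKM and a difference of 4.90 ± 0.72 (SE, limma adjusted p = 0.000739), and at E7.5 by 1.80 ± 0.51 (SE, adjusted p = 0.0246). Cer1, a secreted NODAL and BMP antagonist of anterior endoderm, was lower in P at E7.5 by -1.24 ± 0.39 (SE, adjusted p = 0.0415). Fstl3, the other follistatin family activin binder, reached 1 FPKM in 2 libraries and was not tested. The Lefty2 calls were lost without E7.0 embryo 2 (adjusted p = 0.0575) and without E7.5 embryo 6 (0.133), and the Cer1 call without any 1 of E7.5 embryos 3 to 6 or of E6.5 embryos 1 and 3 to 6 (up to 0.199).

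The targets of the pathway were the list with the largest share of calls at E6.5 and E7.0, with 6 and 4 of 7 higher in P; at E7.5 there were 2. Mixl1, a streak homeobox gene, had 80.5 ± 25.3 FPKM in P against 3.61 ± 2.53 in A at E6.5, and its difference was 3.36 ± 0.23 at E6.5, 5.72 ± 0.40 at E7.0 and 6.07 ± 0.28 at E7.5 (SE, limma adjusted p = 4.55e-07, 6.02e-07 and 1.59e-10). Eomes encodes a T-box factor of the streak. It averaged 48.8 ± 18.6 FPKM in P against 10.8 ± 5.12 in A at E6.5, and differed by 1.98 ± 0.26, 3.71 ± 0.45 and 1.34 ± 0.32 (SE, adjusted p = 0.000673, 0.000131 and 0.00856). Other E6.5 calls were Gsc at 1.95 ± 0.28 (SE, adjusted p = 0.00150), Lhx1 at 1.43 ± 0.23 (SE, adjusted p = 0.00413) and Foxa2 at 1.44 ± 0.28 (SE, adjusted p = 0.0185). At E7.0 Lhx1 differed by 2.49 ± 0.40 (SE, adjusted p = 0.00163) and Gsc by 1.90 ± 0.48 (SE, adjusted p = 0.0397). Leaving out 1 embryo ended the Foxa2 call at E6.5 (embryo 2, 3 or 6, adjusted p up to 0.122), the Lhx1 and Gsc calls at E7.0 (embryo 1, adjusted p = 0.183 for Lhx1 and up to 1 for Gsc, which 7 other embryos also decided) and the Eomes call at E7.5 (embryo 6, adjusted p = 0.0756).

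**Figure D5:**
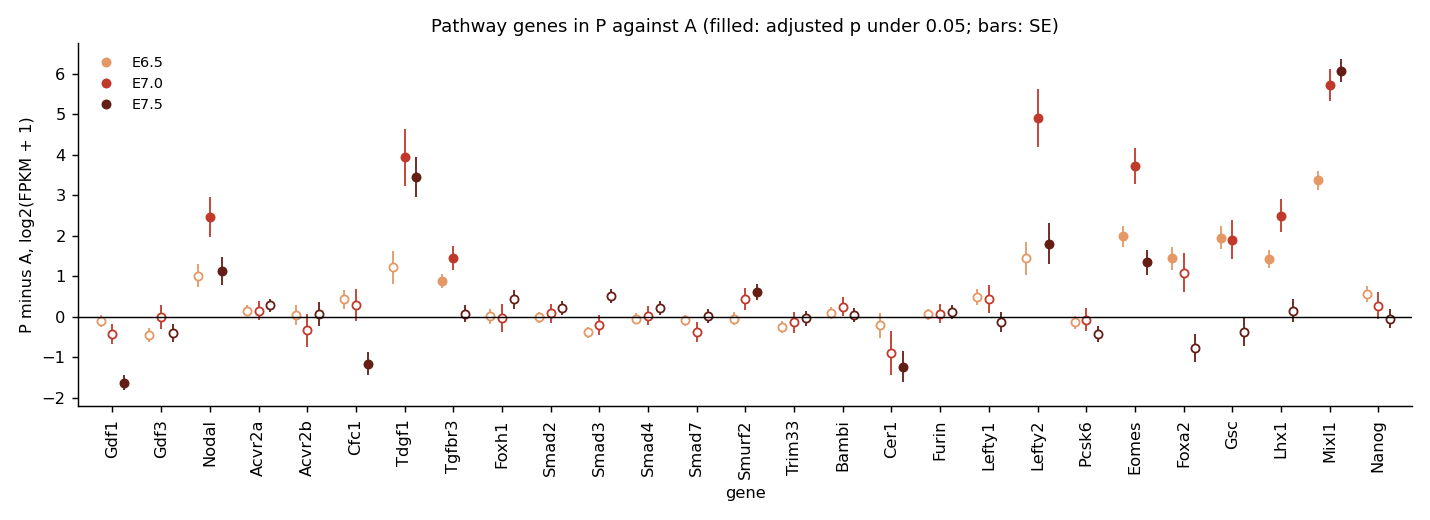
P minus A of 27 of the 28 tested pathway genes on the log2(FPKM + 1) scale, genes along the x axis and 1 colour per stage, with bars for the SE; filled points have a limma adjusted p under 0.05. Mixl1 stands highest at each stage (3.36, 5.72 and 6.07), and Gdf1, Cfc1 and Cer1 are filled below 0 at E7.5.

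Along the E6.5 posterior epiblast, 11 of 27 tested pathway genes climbed proximally and 1 dropped, beside 10.5% and 0.603% (11.1% in all) of 10453 genes. Mixl1 had a slope of 6.86 ± 0.30 (SE), above the Fst slope of 4.57, and Cfc1 one of 3.84 ± 0.74 (SE). Eomes, Lhx1, Gsc, Lefty2, Tdgf1, Foxh1, Nanog and Bambi were among the rest, with slopes between 3.31 and 0.97, and Lefty1, a NODAL antagonist, had -1.47 ± 0.42 (SE, limma adjusted p = 0.0380). The Lefty1 and Lefty2 calls were lost without any of 7 and 8 single embryos (adjusted p up to 0.124 and 0.128). Without E6.5 embryo 2, 7 of the 12 calls were left, and among the Bambi, Cfc1 and Nanog fits with 1 embryo left out the largest adjusted p was 0.112.

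In endoderm against epiblast, 6 of 27 tested pathway genes were higher and 12 lower, where 10.7% and 58.4% of all genes were. Higher were Cer1 by 3.32 ± 0.16 (SE, limma adjusted p = 2.59e-14), Foxa2 by 2.60 ± 0.19, Cfc1 by 2.53 ± 0.17, Lhx1, Tgfbr3 and Gsc. The lower genes included Gdf1 at -2.29 ± 0.17, Tdgf1 at -1.99 ± 0.28, Foxh1 at -1.36 ± 0.16 and Acvr2b at -1.03 ± 0.17 (SE), beside a median of all genes of -0.47. In mesoderm against P, 7 of 25 tested genes were higher, led by Cer1 at 2.93 ± 0.17 and Cfc1 at 2.48 ± 0.11, and 5 lower, namely Mixl1 at -3.33 ± 0.15, Nodal at -1.58 ± 0.21, Tdgf1 at -0.95 ± 0.11, Eomes and Nanog (SE), where 4.03% and 39.1% of all genes were. Fst, Mixl1 and Nodal thus all stood lower in mesoderm than in the epiblast beside it. In the same contrast, 4 of 6 tested endoderm markers and 5 of 5 parietal endoderm markers were higher in the mesoderm libraries. So were 2 of 4 decidual and maternal blood markers, and none of these 3 lists had a lower gene. Of 6 mesoderm markers 2 were higher and 1 lower. The part of other tissue in the higher pathway genes, Cer1 and Cfc1 among them, was not tested. Without 1 embryo the Gsc call ended in endoderm (adjusted p up to 0.268) and the Foxa2 and Gsc calls ended in mesoderm (up to 0.0927). Among the genes lower in endoderm, the Smad3 call ended without any 1 of 4 embryos (adjusted p up to 0.357).

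Follistatin can also bind some BMPs, myostatin and GDF11, and 6 such ligand genes were listed. Mstn, Gdf11 and Bmp6 reached 1 FPKM in 3, 14 and 8 libraries. Bmp7 was higher in P than in A at E7.0 by 1.81 ± 0.32 (SE, limma adjusted p = 0.00362), and Bmp4 at E7.5 by 0.99 ± 0.24 (SE, adjusted p = 0.00935). Bmp2 was higher in endoderm than in epiblast by 2.45 ± 0.19 and in mesoderm than in P by 1.13 ± 0.12 (SE). The Bmp7 call was lost without E7.0 embryo 1 (adjusted p = 0.227) and the Bmp4 call without E7.5 embryo 3 (0.0585), while both Bmp2 calls held without any 1 embryo.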

How the data were processed

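Laser-captured regions of sectioned mouse embryos were profiled by RNA-seq. The deposited values are FPKM per gene; per the submitters' processing notes TopHat2 2.0.8b, Cufflinks 2.1.1 and the mm10 genome were used, and whether strand was used is not given in the sources used here. Table columns were matched to samples by their names: 473 were used, 111 columns matched no sample and were not used, and 113 samples were not analysed here. Coordinates come from GENCODE M21.

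FPKM were set on a log2(FPKM + 1) scale. Libraries of 1 embryo come from the same animal, so regions were compared within embryo and section, and the embryo is the replicate. The members and lists were chosen with earlier results of these data known. Members are described by mean, SD and counts over embryos. Pathway genes were tested with limma 3.58.1 (R 4.3.3, trend and robust) over all genes averaging at least 1 FPKM in 1 stage of the fit, with Benjamini-Hochberg adjustment and a threshold of 0.05; checked on simulated data. The limma fits of P against A share their spread over all stages, so an embryo of another stage can move a call. P-values measure the spread between embryos.

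Named genes are the members, up to 4 genes per list and contrast with the smallest p among those called, genes in small counts, and the 5 most like each member. Lhx1, Tgfbr3, Gsc and other list genes beyond that, and the 3 genes least like Fst, were named after their values were seen. Alternatives were the pseudocount, the filter, rescaled FPKM sums, no embryo term, unmatched sections, libraries over 5000 genes, single-stage fits and each embryo left out. Tables were handled with pandas 2.3.3 and numpy 2.4.6 under Python 3.11.15, and figures drawn with matplotlib 3.10.9. A gene of the target list is counted but not reported here by name.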

Additional observations from a re-analysis of the deposited data

Results flagged for a closer look

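Single embryos far from the rest of their group were looked for in 21 groups of 4 or 6 embryos by Dixon's test at the 95% level. The test flags about 1 group in 20 by chance where values have a normal spread. That rate does not hold for groups with embryos tied at 0. For Fst the flagged values were the A/P tip of E6.5 embryo 1, at 182 FPKM, and the P minus A difference of the same embryo, at 0.97 on the log2 scale. For Inhba they were the A/P tip of E6.5 embryo 3 at 0.605 FPKM, A of E7.5 embryo 4 at 0.629 FPKM, and the P minus A difference of E7.5 embryo 4 at -0.42. For Inhbb they were A of E6.5 embryo 2 at 0.0848 FPKM, the A/P tip of that embryo at 0.0930 FPKM, A of E7.5 embryo 4 at 0.0163 FPKM, and the P minus A differences of E6.5 embryo 2 at -0.10 and of E7.5 embryo 4 at -0.023. The flagged Inhbb levels are near or below the level of 3 reads. The flagged Inhba levels lie above it (0.0640 FPKM in E6.5 embryo 3 and 0.152 in E7.5 embryo 4), but each rests on 1 library above 0. In A and in the tip at E6.5, Inhbb was at 0 in every embryo but embryo 2, so any value above 0 there would be flagged.

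Stages in which every embryo moved one way and every embryo of another stage the opposite way were also listed; none of these differences was tested, and most rest on 2 embryos a stage. The Fst slope in A was larger at E6.0 than at E5.5 by 3.95 and at E6.5 than at E5.5 by 4.46, and the E7.0 slope minus that of E6.0 and of E6.5 was -3.60 and -4.10. Without the low-Pou5f1 A library of E5.5 the first 2 were 3.71 and 4.22. The Fst difference of endoderm and epiblast at E7.0 exceeded that at E6.5 by 1.46 on the log2 scale, while in FPKM endoderm averaged below epiblast in both embryos of both stages. For Inhba, the slope in P at E7.5 minus that at E6.0 was -2.23, EP minus EA at E7.0 exceeded that at E6.5 by 0.28, and P minus A at E6.0 exceeded that at E5.5 by 1.01. These rest on single libraries: without the 2 low-Pou5f1 libraries and the EA library at 25.7 FPKM they were -0.49, -0.085 and 0.57, as checked after seeing the data.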

How the results depend on the processing

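Fst kept its direction in P against A at E6.5, E7.0 and E7.5, in mesoderm against P and in its E6.5 slope under every alternative run. Many of these could not move it. Its value is a mean over embryos, so the filter and single-stage fits leave it as it is. Leaving out an embryo of another stage cannot change its P minus A or its slope. The setting with no embryo term was not run for it. No called pathway gene turned round (1058 gene results kept their call and 191 lost it), but counts of calls moved. With no replicate block (no embryo term) P minus A gave 3 calls at E6.5, 5 at E7.0 and 3 at E7.5, and mesoderm 4, against 7, 8, 9 and 12 within embryos. At E6.5 a pseudocount of 0.1 and equal FPKM sums gave 4 calls each, and equal sums left 7 of 12 slope calls. Using the shallower embryos alone, chosen after seeing the data, left 1 call at E6.5, 5 at E7.5 and 5 in the slope. With each embryo left out in turn, the counts ran 5 to 9 at E6.5, 4 (without E7.0 embryo 1) to 8 at E7.0, 4 (without E7.5 embryo 6) to 10 at E7.5, 16 to 17 in endoderm, 9 to 14 in mesoderm and 7 (without E6.5 embryo 2) to 12 in the slope. Fst then ran from 2.16 to 2.58, 5.15 to 5.62 and 5.80 to 6.16 in P minus A, from -0.20 to 0.42 in endoderm, -3.45 to -3.29 in mesoderm and 4.29 to 4.84 in the slope. A pseudocount of 0.1 gave Fst 6.41 at E7.0 and 7.11 at E7.5, and equal sums 5.79 and 6.55. Members near 0 also moved. With a pseudocount of 0.1, Inhbb P minus A was -0.43 at E7.0 and -0.0545 at E7.5, its endoderm difference 0.17, its mesoderm difference 0.031 and its slope -0.14; Inhba had -0.22 in mesoderm and a slope of -1.63. With equal sums Inhbb was -0.20 at E7.0, -0.042 at E7.5 and 0.020 in mesoderm; with unmatched sections Inhba was 0.15 at E7.0 and Inhbb -0.00230 in mesoderm. At these depths 3 reads are up to 0.256 FPKM of Inhba and 0.384 of Inhbb, and values below an embryo's own level rest on fewer reads.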
